A study of Mus musculus with 24 samples.

Results

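The cerebellum and the hippocampus of the same vehicle-treated Npc1-/- mice were compared, gene by gene, in 8 of the 24 libraries of the series. The 8 were chosen by genotype, treatment and tissue and paired by animal number (animals 9, 11, 14 and 21, here mice 1 to 4), and no measured value entered the choice. The strain of every mouse was BALB/cNctr-Npc1m1N/J. Its Npc1-/- animals lack functional NPC1 in every cell. The 4 Npc1-/- vehicle mice (3 males and, as mouse 3, 1 female, postnatal day 63) had received PBS:PEG400 by intraperitoneal injection from postnatal day 28. For reference, the same tissues came from 4 Npc1+/+ mice on the same vehicle, all female and at postnatal day 65, and from 4 Npc1-/- mice (2 males and 2 females, postnatal day 63) that received dipyridamole at 30 mg/kg in that vehicle, also from postnatal day 28. Genotype, sex and age therefore overlap between the vehicle groups. Replicates are separate mice, each with 1 library per tissue.

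NPC1 is a protein of the late endosomal and lysosomal membrane that passes cholesterol out of the lysosome. Its loss causes Niemann-Pick disease type C, in which unesterified cholesterol and sphingolipids build up and the brain degenerates. The cerebellum is known to be hit hard, with loss of Purkinje cells, the sole output neurons of its cortex, while the hippocampus is known to keep most of its neurons for longer. The cerebellar cortex is built mainly from granule cells, Purkinje cells, inhibitory interneurons and Bergmann glia, and the hippocampus from glutamatergic pyramidal and granule neurons of forebrain origin with a mixed set of interneurons.

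Expression was read by AmpliSeq, which amplifies 1 short stretch per gene, and values are CPM, which are counts relative to the library total after TMM scaling. Levels are compared between libraries for the same gene, not between genes. Totals of the 8 libraries ran from 1833609 to 8479754 counts, and both libraries of mouse 2 were the shallowest of the 4 of their tissue. The ion code given as batch differed for each of the 8 libraries (117, 119, 122 and 123 in cerebellum, 125, 127, 130 and 131 in hippocampus), so code and tissue cannot be told apart. Codes of the Npc1+/+ libraries ran from 101 to 112, with the tissues of a mouse on neighbouring codes. Code and genotype therefore cannot be told apart either. The first principal component of the 24 libraries held 57.6% of the variance and separated the tissues. The hippocampal library of dipyridamole mouse 4, whose ion code (124) is also that of its cerebellar library, stood apart on it, at 50.5 against 65.1 to 73.6 for the other hippocampal libraries of that group. Spink8, a marker of pyramidal cells of field CA1, read 2.04 CPM there and 21.6 to 26.3 CPM in those libraries. In bulk tissue, fewer cells of a type and less RNA per cell cannot be told apart.

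The mutated gene itself was read first. Npc1 (chromosome 18, 12322749 to 12369457, minus strand, GRCm39) stood at 37.6, 24.2, 32.1 and 21.7 CPM in the cerebellum of mice 1 to 4 and at 23, 18.1, 17.8 and 20.5 CPM in their hippocampus. In Npc1+/+ mice it ran from 97.8 to 107 CPM in cerebellum and from 63.6 to 98.3 CPM in hippocampus, above every Npc1-/- vehicle library. Within the Npc1-/- mice the regional difference was 0.53 ± 0.20 (log2, SE, adjusted p = 0.0435 by edgeR's quasi-likelihood test), and the values of the tissues overlapped. The call was lost without mouse 1 (0.46, adjusted p = 0.164), without mouse 2 (0.55, adjusted p = 0.0763) and without mouse 3 (0.40, adjusted p = 0.204). It was also lost with limma-voom (adjusted p = 0.0535) and with a choroid plexus covariate (adjusted p = 0.0511).

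Of 13436 genes tested, 5568 (41.4%) differed between cerebellum and hippocampus at an adjusted p under 0.05. Of these, 2767 (20.6%) were higher and 2801 (20.8%) lower in cerebellum. At least 2-fold differences were called for 2694 genes (20.1%) and at least 8-fold differences for 493 (3.67%). When libraries were scaled by their totals alone, the median of all genes moved from 0.01 to 0.159 (log2) and the split of regional genes became 3719 higher and 2157 lower (63.3% against 49.7% higher). Regional differences below are relative to the median of all genes. Counts of each gene list below stand beside the 41.4% called, 20.6% higher and 20.8% lower among all genes.

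Genes of cerebellar neurons led the higher side. Gabra6, the GABA-A receptor alpha subunit of mature cerebellar granule cells (chromosome 11, 42197264 to 42211899, minus strand), read 224, 252, 209 and 143 CPM in cerebellum and 0 in all 4 hippocampal libraries. With 5039 counts against 0, it was at least 1660-fold higher in cerebellum, taking 3 counts over the group as the floor. Cbln3, a cerebellin secreted by granule cells (chromosome 14, 56116370 to 56121849), read 2960, 2180, 2560 and 2630 CPM in cerebellum and 3.17, 1.92, 1.85 and 1.71 CPM in hippocampus, a difference of 10.24 ± 0.34 (adjusted p = 5.2e-13). The protocadherin-like Fat2 of granule cell parallel fibres (9.63 ± 0.42) and Cbln1, the bridge between parallel fibres and the Purkinje cell receptor GluD2 (7.14 ± 0.71), behaved alike, with no overlap between tissues.

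The cerebellar promoter example and that of the microglial gene Gpnmb, described below, are shown because these 2 genes carry the regional and the genotype contrast. Each is 250 bases before to 50 after the RefSeq start, on the gene's strand, from GRCm38.p6. Gabra6 lies at chr11:42321023-42321322 (minus strand) and Gpnmb at chr6:49036268-49036567 (plus strand).
Gabra6: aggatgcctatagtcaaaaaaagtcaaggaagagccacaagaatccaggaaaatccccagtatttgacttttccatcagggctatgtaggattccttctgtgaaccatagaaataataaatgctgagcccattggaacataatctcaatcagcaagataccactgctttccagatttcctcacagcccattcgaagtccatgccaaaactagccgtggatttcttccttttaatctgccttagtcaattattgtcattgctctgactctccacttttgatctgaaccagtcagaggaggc
Gpnmb: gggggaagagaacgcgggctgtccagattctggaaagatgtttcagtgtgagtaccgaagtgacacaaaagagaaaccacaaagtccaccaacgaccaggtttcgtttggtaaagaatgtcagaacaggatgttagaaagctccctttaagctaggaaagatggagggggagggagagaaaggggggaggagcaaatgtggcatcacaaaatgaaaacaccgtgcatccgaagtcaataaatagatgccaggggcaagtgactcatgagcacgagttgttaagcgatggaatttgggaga
A first search of 7 motifs on both strands (the E-box CAGATG, the E-box CAGCTG, the cyclic AMP element TGACGTCA, the PU.1 site GAGGAAGT, the lysosomal CLEAR element TCACGTGA, the EGR site GCGTGGGCG and the palindromic nuclear factor I site) matched neither sequence, which is why all letters are lower case. It matched 0 of the 7 promoters looked at, of Gabra6, Cbln3, Mag, Gpnmb and Itpka. Among 32851 promoters of this length CAGATG occurred in 17.2% and TTGGCA, a half-site of the nuclear factor I family, in 14.1%. TTGGCA and the AP-1 motif TGACTCA (5.2% of all) were searched only after these sequences had been read, so their matches, TTGGCA in Gabra6 and Cbln3 and TGACTCA in Gpnmb, were found by looking for what the sequences held and support nothing.

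**Figure D1:**
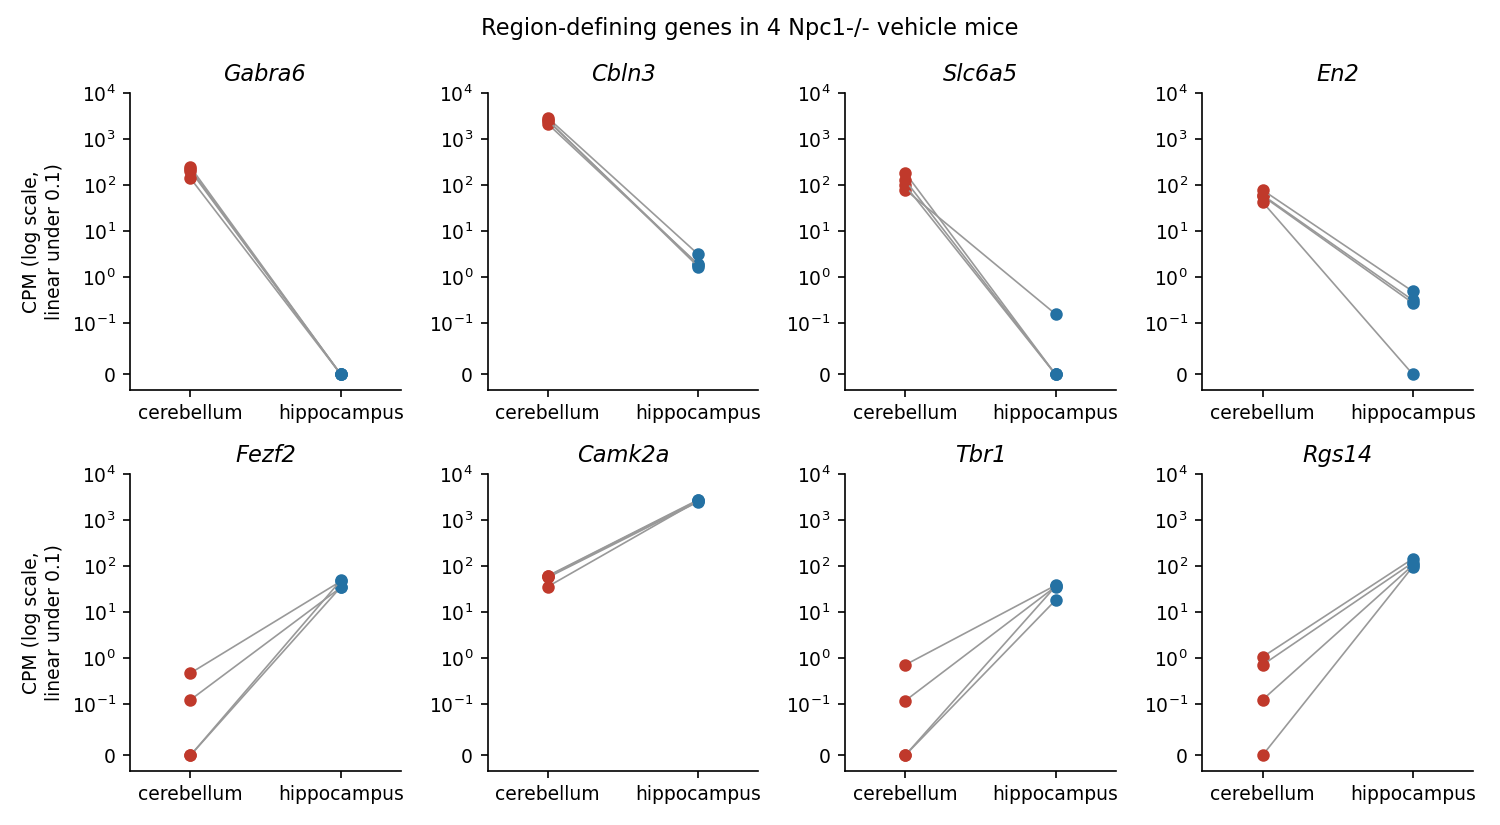
CPM (vertical axis, log scale, linear under 0.1) of 8 genes in cerebellum (red) and hippocampus (blue) of 4 Npc1-/- vehicle mice, a grey line joining the tissues of a mouse. Gabra6 is at 0 in all 4 hippocampal libraries, and no gene's tissues overlap.

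Transcription factors of the hindbrain and of the forebrain went opposite ways. Of 23 measured factors of cerebellum and hindbrain, 22 were higher in cerebellum and 0 lower, with a median of 5.54 (5.42 with genes at 0 counts set to their bound), where 20.6% of all genes were higher. En2, a midbrain and hindbrain patterning factor, read 61.8, 59.1, 79.5 and 43.6 CPM against 0.317, 0.275, 0.493 and 0 CPM. Pax2, which marks precursors of cerebellar interneurons, had 667 counts in cerebellum and 0 in hippocampus (at least 220-fold). Lmx1a alone missed the threshold, at 0.81 ± 0.85. Of 29 forebrain factors, 26 were lower in cerebellum and 0 higher, with a median of -2.86. Fezf2, a factor of deep-layer cortical neurons, read 0.477, 0, 0.125 and 0 CPM in cerebellum and 47.6, 35.5, 34.8 and 49.6 CPM in hippocampus (-7.69 ± 0.44). Tbr1, a factor of cortical glutamatergic neurons, read 0.119, 0, 0 and 0.719 CPM in cerebellum and 18.4 to 38.7 CPM in hippocampus (-7.15 ± 0.46). Neither gene's tissues overlapped.

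All 35 measured genes of the hippocampal fields were lower in cerebellum, with a median of -3.72. Camk2a, the kinase of forebrain excitatory synapses, read 57.4, 62.2, 36.3 and 60.7 CPM in cerebellum and 2540, 2810, 2680 and 2720 CPM in hippocampus (-5.66 ± 0.18, adjusted p = 3.1e-13). Rgs14, the signalling regulator of field CA2, read 1.07, 0, 0.125 and 0.719 CPM in cerebellum and 99.2 to 147 CPM in hippocampus. The tyrosine kinase Ptk2b (-6.02 ± 0.29) and the calcium sensor Hpca (-4.57 ± 0.20) followed. This list holds Calb1 and Itpka, which are Purkinje cell genes as well and are taken up below.

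Granule cell genes were higher in cerebellum for 15 of 18, with a median of 2.40 beside 2.70 in Npc1+/+ mice. Zic2 (3.22 ± 0.19), Pax6 (2.81 ± 0.13) and Grm4, the presynaptic glutamate receptor of parallel fibres (4.61 ± 0.27), were among them. Slc17a7, the vesicular glutamate transporter VGLUT1, went the other way at -2.46 ± 0.19, with 506 to 735 CPM in cerebellum and 2000 to 4440 CPM in hippocampus. No granule cell gene was called in the test of its regional difference against Npc1+/+, described below. That test recovered only 5.97% of 2-fold differences in simulated counts. That test has a tissue by sex term, which lets the tissue difference vary with sex. With it, the list's median difference from Npc1+/+ was -0.55. This is not the gap between the medians above, which come from the fit without the term. For Grm4 the tested difference was -1.17 ± 0.32 (adjusted p = 0.117 by edgeR's quasi-likelihood test). Without the term, Grm4's regional value was 4.61 here and 5.08 in Npc1+/+ mice. Of 16 genes of cerebellar interneurons and unipolar brush cells 9 were higher and 2 lower. The glycine transporter Slc6a5 of inhibitory neurons had 2755 counts in cerebellum and 1 in hippocampus, a ratio of 2730 (95% counting interval 490 to 108000). Gad1, the GABA-synthesising enzyme, was 497 CPM in cerebellum and 489 CPM in hippocampus (0.02 ± 0.11).

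Purkinje cell genes were divided. Of 29 measured, 20 were higher and 6 lower in the cerebellum of Npc1-/- mice, with a median of 1.16, beside 2.70 in Npc1+/+ mice. Pcp2, a G-protein modulator of Purkinje cells, read 109, 199, 245 and 163 CPM in cerebellum and 2.85 to 6.18 CPM in hippocampus (5.40 ± 0.39), and 1100 to 1820 CPM in Npc1+/+ cerebellum. Among the lower ones were Calb1, Itpr1, Itpka, Nrgn and Stac. Calb1, a calcium buffer (chromosome 4, 15881264 to 15908064), read 41.3, 39.6, 79.6 and 48.6 CPM in cerebellum and 101, 102, 88 and 93.4 CPM in hippocampus (-0.92 ± 0.16, adjusted p = 1.4e-04), so its tissues did not overlap. In Npc1+/+ mice Calb1 stood at 639 to 709 CPM in cerebellum and 104 to 130 CPM in hippocampus, the opposite order. Itpr1, the calcium release channel of the endoplasmic reticulum, read 278, 216, 410 and 281 CPM in cerebellum and 306 to 589 CPM in hippocampus (-0.61 ± 0.20, adjusted p = 0.020), with overlap between tissues, against 1600 to 2670 CPM and 329 to 526 CPM in Npc1+/+ mice. The Itpr1 call was lost without mouse 1 (-0.45, adjusted p = 0.135), without mouse 4 (-0.51, adjusted p = 0.11) and with library totals (-0.46, adjusted p = 0.0729).

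Glial lists differed in their balance. Of 36 measured genes of myelin and mature oligodendrocytes, 34 were higher in cerebellum and 1, Dock10, was lower, with a median of 2.17 beside 0.42 in Npc1+/+ mice. Mbp, a main structural protein of myelin, read 8300, 7430, 5420 and 10000 CPM in cerebellum and 1410, 913, 954 and 1320 CPM in hippocampus (2.75 ± 0.20). Mag, an adhesion protein of the inner myelin membrane (chromosome 7, 30598601 to 30614298), read 180, 325, 171 and 196 CPM against 25.7, 31.1, 22.7 and 26.2 CPM (2.99 ± 0.21). In Npc1+/+ mice Mag stood at 182 to 235 CPM in cerebellum and 106 to 195 CPM in hippocampus, so the cerebellar values overlapped between genotypes and the hippocampal values did not. Of 24 genes of oligodendrocyte precursors and new oligodendrocytes, 10 were higher and 4 lower, with a median of 0.42. Pdgfra (-0.91 ± 0.24) and Cspg4 (-0.54 ± 0.19), the classical precursor markers, were among the lower. Cnksr3 (3.67 ± 0.20) and Tmem163 (3.41 ± 0.26) were among the higher. Lhfpl3 (log2 1.03 to 1.39) and Vcan (0.51 to 1.21) were higher in cerebellum in each of the 4 mice. Markers of brainstem and other regions were also counted. Their summed level was 847.1 to 938.8 CPM in cerebellum and 238.1 to 292.9 CPM in hippocampus, 13 of 21 were higher and 1 lower, and Hoxb2 and Hoxc4 were at 0 in every hippocampal library. In Npc1+/+ cerebellum the sum was 826.2 to 994.6 CPM. Calb2, a member of this list that granule cells also make, alone averaged 479 CPM in cerebellum and 60.9 CPM in hippocampus. The sum therefore does not measure brainstem tissue alone. The part of these markers in the myelin result was not tested.

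Microglial lists differed in their balance. Of 20 homeostatic genes 1 was higher and 9 lower in cerebellum, with a median of -0.49 beside -1.6 in Npc1+/+ mice. Tmem119 read 12.5, 28.8, 10.7 and 15.4 CPM in cerebellum and 24.4 to 37.1 CPM in hippocampus, and the tissues overlapped. Of 27 genes of disease-associated microglia, a state that takes up lipid and debris, 16 were higher and 1, Lpl, was lower, with a median of 0.62 beside -0.61 in Npc1+/+ mice. Gpnmb, a glycoprotein of lipid-laden phagocytes (chromosome 6, 49013480 to 49047863), read 73.5, 127, 57.5 and 53.9 CPM in cerebellum and 6.5, 7.15, 11.8 and 5.56 CPM in hippocampus (3.24 ± 0.26, adjusted p = 1.3e-08). Both exceeded the 0.121 to 2.01 CPM of Npc1+/+ libraries. Spp1, osteopontin, was higher by 4.59 ± 0.25, beside 3.90 in Npc1+/+ mice (adjusted p of the difference 0.936), and the lysozyme gene Lyz2 by 2.54 ± 0.19. Of 12 complement genes 6 were higher and 0 lower, and of 24 interferon response genes 2 and 0. Among all genes 41.4% were called, and the called share of the interferon list was below that.

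Astrocyte genes were higher for 17 and lower for 7 of 32. Aqp4, the water channel of astrocyte endfeet, was higher by 2.39 ± 0.20, and Slc1a2, the main glutamate transporter of forebrain astrocytes, was lower (-1.58 ± 0.16). Among 20 genes of reactive astrocytes 9 were higher and 2 lower. Gfap, their filament protein, read 136, 151, 118 and 136 CPM in cerebellum and 54.5, 46.2, 59.3 and 58.5 CPM in hippocampus (1.30 ± 0.14). In Npc1+/+ mice Gfap was 8.34 to 9.33 CPM in cerebellum and 13.2 to 19.9 CPM in hippocampus, again the opposite order. Of 19 Bergmann glia genes 9 were higher and 5 lower, with a median of 0.31 beside 0.72 in Npc1+/+ mice. The D-amino acid oxidase gene Dao had 976 counts in cerebellum and 1 in hippocampus (ratio 967, 95% counting interval 173 to 38200). Gdf10 was also higher (2.27 ± 0.16), whereas Npy1r (-2.88 ± 0.18) and Gria1 (-2.86 ± 0.35) were lower.

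Genes of the pathway in which NPC1 acts were called in shares near or above that of all genes (41.4%), with few lower in cerebellum. Of 48 lysosomal genes 18 were higher and 2 lower (20.6% and 20.8% of all genes), and with library totals they were 26 and 1. Ctsd, a lysosomal protease, read 2300 to 3930 CPM in cerebellum and 1310 to 2160 CPM in hippocampus (0.94 ± 0.13). Of 24 genes of cholesterol synthesis 10 were higher and 0 lower. Stard4, a sterol carrier (1.72 ± 0.16), and Insig1, which holds back sterol-regulated transcription (1.14 ± 0.17), were among the higher. Of 31 genes of sterol transport and LXR control 14 were higher and 3 lower. Cyp46a1, the neuronal cholesterol hydroxylase, was among the lower, at 54.9 to 78.6 CPM against 189 to 211 CPM (-1.64 ± 0.14).

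Members of the same receptor and channel families went both ways. Of 15 GABA-A subunits 5 were higher and 6 lower. Gabrd, the extrasynaptic delta subunit, was higher (2.06 ± 0.26), and Gabra5, the hippocampal alpha subunit, lower (-3.50 ± 0.31). Of 16 ionotropic glutamate subunits 5 were higher and 9 lower. The NMDA receptor subunit Grin2c was higher by 2.67 ± 0.11, and Grin2b read 32.2 to 41.4 CPM in cerebellum against 418 to 579 CPM in hippocampus (-3.80 ± 0.19). Metabotropic glutamate receptors were 3 higher and 3 lower of 7, and voltage-gated calcium channel genes 8 and 10 of 22. Of 15 genes of calmodulin-dependent kinases and calcineurin 4 were higher and 8 lower. Of 18 phosphodiesterase genes, a family of which dipyridamole inhibits some members, 7 were higher and 6 lower in these vehicle mice. The calmodulin-dependent members Pde1c and Pde1a stood at 3.92 ± 0.23 and -4.01 ± 0.18. Slc29a1, a nucleoside transporter that dipyridamole blocks, was higher (1.10 ± 0.22) and the adenosine receptor Adora1 lower (-2.33 ± 0.33).

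**Figure D2:**
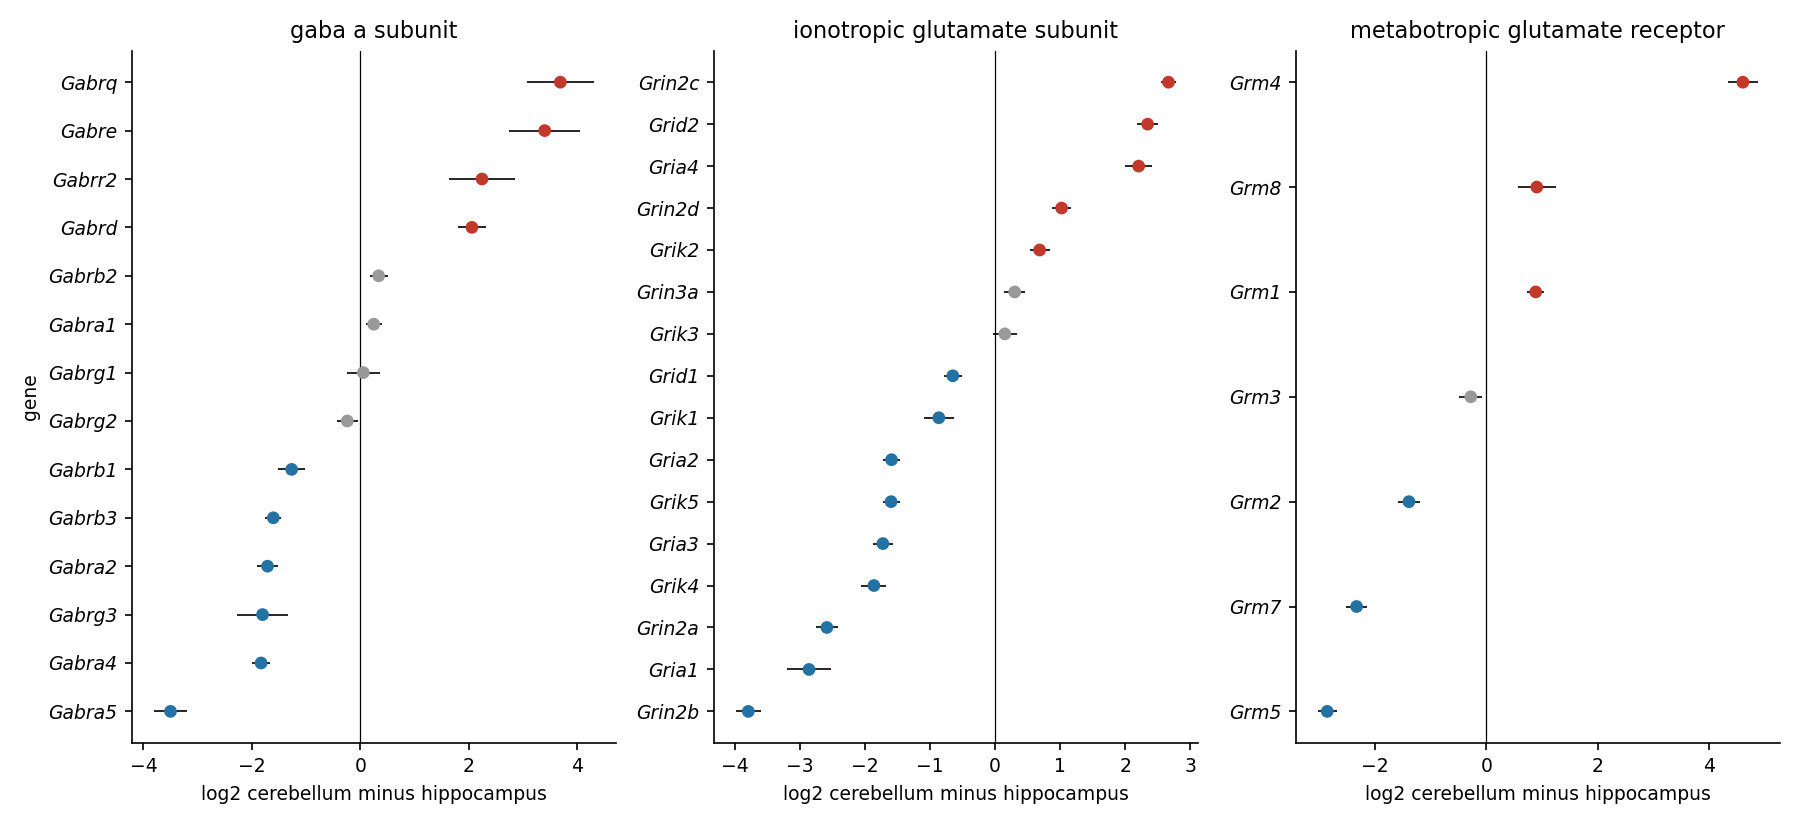
Regional log2 difference (horizontal axis, bar: SE) of GABA-A subunits, ionotropic glutamate subunits and metabotropic glutamate receptors in Npc1-/- vehicle mice; red is higher and blue lower in cerebellum at an adjusted p under 0.05, grey neither. Gabra6, at 0 in hippocampus, is left out, and Grin2c and Grin2b stand at 2.67 and -3.80.

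Of 27 immediate early genes 4 were higher and 16 lower. Egr1 read 73.9 to 102 CPM in cerebellum and 208 to 368 CPM in hippocampus (-1.85 ± 0.21), whereas Fos was higher (0.75 ± 0.23). Among neuropeptide precursors 7 were higher and 9 lower of 20, with Cck at -4.84 ± 0.17 and Penk at 1.95 ± 0.17. No gene of 19 choroid plexus markers passed. Ttr read 18.5, 2660, 1860 and 1880 CPM in cerebellum and 3960, 7480, 64.8 and 504 CPM in hippocampus, so it ranged widely within each tissue. Forebrain interneuron genes were 9 higher and 13 lower of 25. The interneuron factor Lhx6 read 0.239, 1.03, 0.25 and 0.144 CPM in cerebellum and 22.9 to 28.2 CPM in hippocampus, and Dlx2, Dlx5 and Dlx6 were at 0 in every cerebellar library. Calb2, a calcium-binding protein also made by granule cells, was higher by 3.02 ± 0.33, and Sst, somatostatin, was lower (-2.02 ± 0.20). Of 13 newborn neuron genes 4 were higher and 4 lower, with Dcx, a microtubule protein of migrating neurons, at -1.17 ± 0.20. Among 7 vesicular transporters 3 were higher and 3 lower, and the acetylcholine transporter Slc18a3 read 23.1 to 33.1 CPM in cerebellum against 0 to 0.493 CPM. Sodium channel genes were 1 higher and 5 lower of 11, with Scn4b at 2.20 ± 0.22 and Scn3b at -4.00 ± 0.33. Cerebellins, C1q-like proteins and their receptors were 5 higher and 4 lower of 15. Vascular and meningeal genes were 6 higher and 2 lower of 27, led by Ptgds, the prostaglandin D synthase of the meninges (1.85 ± 0.29). Adenosine genes were 4 higher and 2 lower of 16. The called share of both the vascular and the adenosine list was below that of all genes (41.4%).

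Of 25 oxidative phosphorylation genes 2 were higher and 1 lower, a called share below that of all genes (41.4%). These became 9 and 0 with library totals, under which the split of all genes also moved towards cerebellum.

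**Figure D3:**
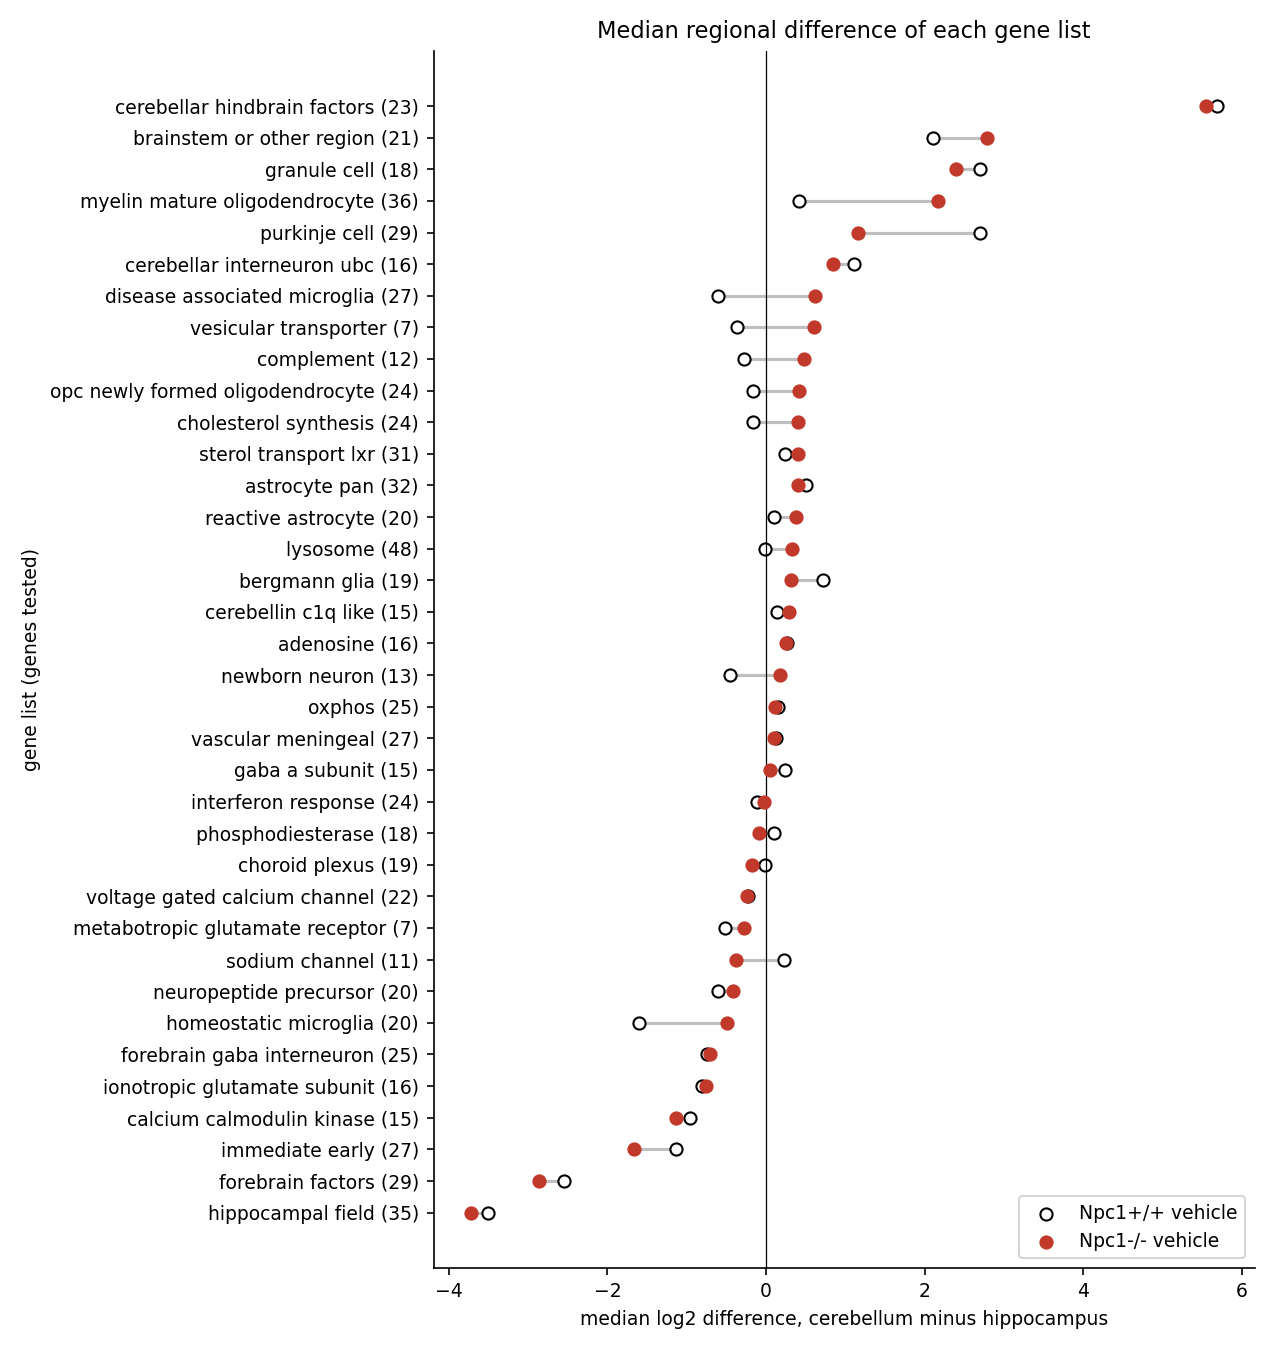
Median regional log2 difference (horizontal axis) of each gene list, with the number of genes tested in brackets, in Npc1-/- vehicle (red) and Npc1+/+ vehicle mice (open). Myelin (2.17 and 0.42) and Purkinje cell genes (1.16 and 2.70) lie furthest apart.

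Most regional differences were shared with the Npc1+/+ mice, which share no library with the Npc1-/- mice. There 5786 genes (43.1%) were called. Across the 13436 genes, which are not independent replicates, the regional log2 values had Pearson's r of 0.882. Called in both were 4122 genes, of which 36 had opposite signs. The 4086 with the same sign were 73.4% of the Npc1-/- calls and 70.6% of the Npc1+/+ calls.

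The difference between the genotypes' regional differences was then tested with a tissue by sex term. The tested values are therefore not the gaps between the regional values given above, which come from the fit without that term. For Gpnmb that fit gave 3.24 in Npc1-/- and -1.64 in Npc1+/+ mice, and the tested difference was 4.06. A difference was called for 155 genes (1.15%), 73 (0.543%) shifted towards cerebellum and 82 (0.61%) towards hippocampus in Npc1-/- mice. Of the myelin list 20 genes shifted towards cerebellum and 0 towards hippocampus, and of Purkinje cell genes 0 and 14. Of disease-associated microglia 7 and 0 shifted, and of homeostatic microglia, complement and lysosomal genes 3 and 0 each. Among astrocyte genes 3 and 3 shifted, and among reactive astrocyte genes 3 and 1. More also shifted towards hippocampus among immediate early genes (0 and 4), Bergmann glia genes (0 and 3) and hippocampal field genes (0 and 3). These lists were chosen with earlier results of these data known, so their counts are not independent support. The Purkinje list holds Car8, Itpka and Calb1, which are named below. Genes of at least 20 CPM were ranked by p. Among the first 10 towards cerebellum were Gpnmb (4.06 ± 0.45, adjusted p = 2.1e-04) and Hpse, heparanase (3.15 ± 0.46), with the myelin genes Mag (2.54 ± 0.36), Mbp (2.32 ± 0.35) and Mal (2.15 ± 0.29). Among the first 10 towards hippocampus were Car8, a regulator of IP3 receptors (-4.03 ± 0.46), Itpka, an IP3 kinase (-3.67 ± 0.41), and Calb1 (-3.10 ± 0.26). Some genes of lower level also had large called shifts. Examples, both chosen after their values were seen, are Ermn, a cytoskeletal protein of oligodendrocytes (3.42 ± 0.68), and Eomes, a factor of unipolar brush cells (-4.61 ± 1.02). Eomes averaged only 1.97 CPM in Npc1-/- cerebellum and 0.449 CPM in hippocampus. Its regional call was lost without mouse 1 and without mouse 4. Itpka read 9.63 to 14.9 CPM in the Npc1-/- cerebellum and 104 to 143 CPM in the Npc1+/+ cerebellum, with overlapping hippocampal values. The count rested on the sex term and on mouse 3, the only female of the Npc1-/- vehicle group: it was 386 without the term, 27 without mouse 3, 22 when only the vehicle groups were fitted and 90 without Npc1+/+ replicate 3. Of the 20 genes named from this test, 8 stayed called under every alternative run, among them Gpnmb, Unc5b, Mbp, Calb1, Tuba8, Car8 and Itpka. In simulated counts for this comparison, drawn without a mouse effect, 2-fold differences were recovered for 5.97% and 4-fold differences for 69.7% of changed genes.

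**Figure D4:**
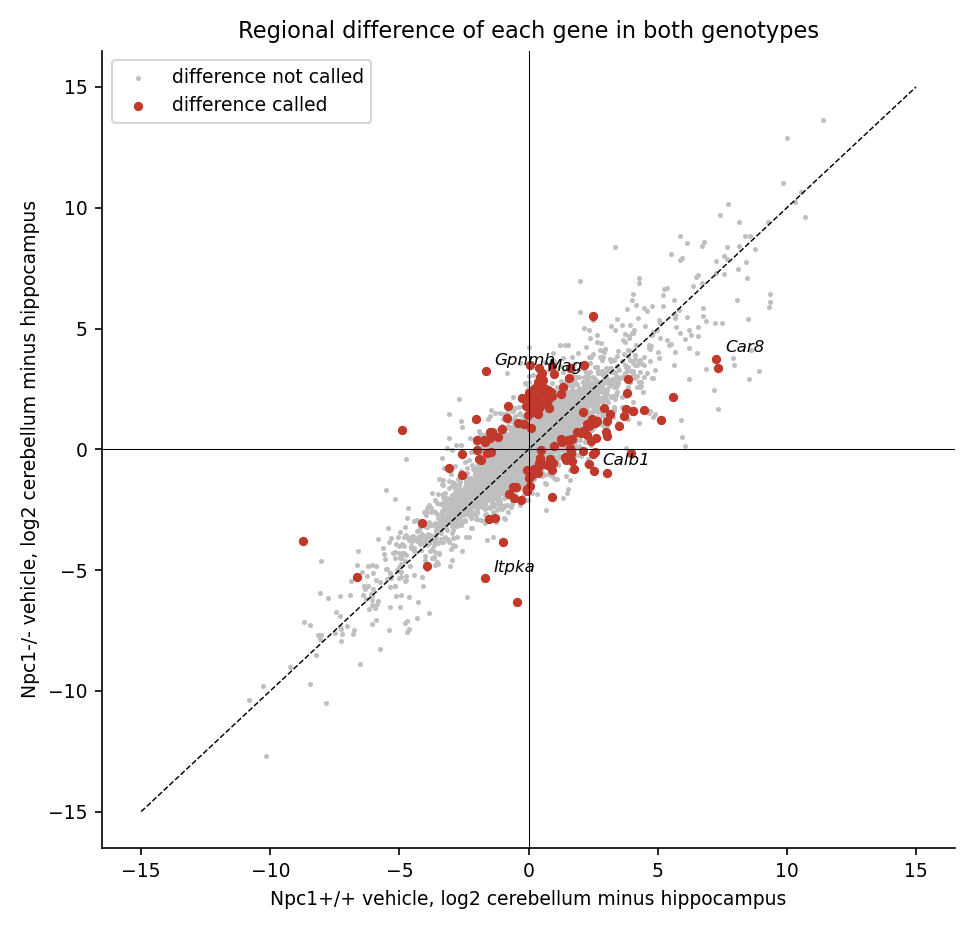
Regional log2 difference of each of 13436 genes in Npc1+/+ (horizontal) and Npc1-/- vehicle mice (vertical), red where the difference test called the gene (155 genes). The dashed line marks equal values. The axes come from the fit without the tissue by sex term and the colour from the fit with it. Distance from the line is therefore not the tested value. Calb1 and Gpnmb lie in quadrants of opposite sign.

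**Figure D5:**
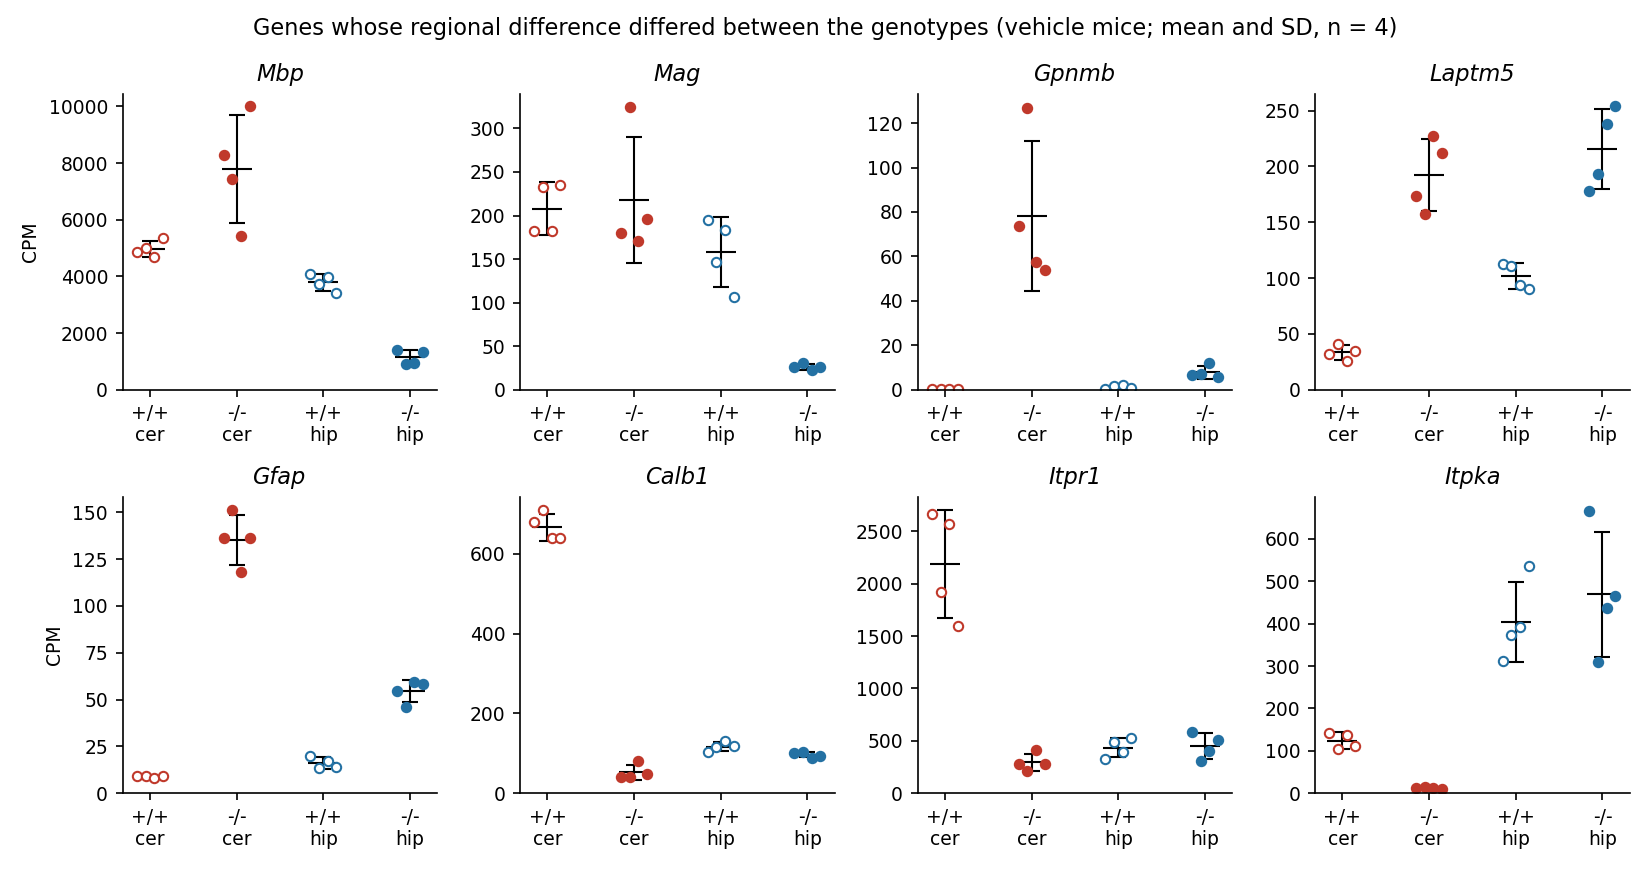
CPM of 8 genes in the 4 vehicle groups (points: mice, bar: mean and SD, n = 4; red cerebellum, blue hippocampus, open Npc1+/+, filled Npc1-/-). Mag differs between genotypes in hippocampus, Calb1 in cerebellum.

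Dipyridamole-treated Npc1-/- mice showed 5509 regional genes (41%). The difference of their regional values from those of the vehicle mice was called for 0 genes (0%) by edgeR, DESeq2 and limma-voom, and 222 (1.65%) had an unadjusted p under 0.05. It was 0 also without dipyridamole mouse 4. For Gpnmb the difference, vehicle minus dipyridamole, was -0.05 ± 0.25, for Mag -0.35 ± 0.29 and for Calb1 -0.06 ± 0.21, each with an adjusted p of 1. Recovery of known differences was not simulated for this comparison.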

How the data were processed

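RNA of cerebellum and hippocampus was read in 24 AmpliSeq libraries on an Ion S5, per the labels' protocols. Reads were processed with FastQC 0.11.9, Trimmomatic 0.39, STAR 2.7.9a and featureCounts 2.0.3, per the submitters' processing notes, on GRCm39 with GENCODE annotation and without strand, per the file headers. The authors deposited raw counts per gene. Overlapping antisense genes and near-identical copies cannot be told apart, and PCR reads without molecular identifiers make intervals cover counting error only. Symbols were matched by ID for 51884 of 57126 genes, and IDs without a symbol held 0.21% of counts.

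Counts of all 24 libraries were fitted with edgeR 4.0.16 (R 4.3.3), TMM factors, filterByExpr and the quasi-likelihood test, blocking on the animal, with 1 tissue effect per mouse group (9 residual degrees of freedom, 8 in the difference tests, which add a tissue by sex term). Adjusted p is Benjamini-Hochberg with a threshold of 0.05. Pairing comes from the animal number: cerebellar and hippocampal deviations of a mouse correlated at 0.334, 0.346, 0.11 and 0.061, beside a highest value with another mouse of 0.161, 0.055, 0.048 and 0.137, so mouse 4 correlated more with another mouse. Replicate pairs differed beyond sampling noise (chi-square over its degrees of freedom: 7.46 to 32.7). DESeq2 1.42.0 and limma 3.58.1 were alternatives, beside other factors, filters, covariates and left-out mice. The test was checked on simulated data. There each library was drawn independently around its group mean, with no mouse effect and a spread estimated without the animal block. The simulated recovery is therefore not that of paired tissues.

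Members and gene lists were chosen with earlier results of these data known. Named genes are Npc1, the 15 highest and 15 lowest fold changes among called genes of at least 20 CPM without overlap (clone names, Xist and Y-linked genes left out), up to 4 called members per list, 10 genes per direction of each difference test, and 5 genes of opposite sign; other list members are given as examples, and a few genes that these rules name are not reported here. Promoters come from RefSeq (GRCm38.p6). The first 7 motifs matched none of the 7 promoters looked at; after those sequences had been read, 2 more were searched and kept apart.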

Additional observations from a re-analysis of the deposited data

Results flagged for a closer look

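Of 176 checks for a single library standing apart from the other 3 of its group (Dixon's test at 95%), 14 passed, and chance alone gives about 1 in 20. In cerebellum the highest library was apart for Barhl2 (49.9 CPM), Lct (0.514 CPM), Tbr1 (0.719 CPM), Lhx6 (1.03 CPM), Mag (325 CPM), Cep76 (31.4 CPM) and the summed interneuron and unipolar brush cell list (1390 CPM). In hippocampus it was apart for Slc6a5 (0.159 CPM), Cbln3 (3.17 CPM), Dao (0.275 CPM), Uncx (0.37 CPM), Barhl1 (0.428 CPM) and the summed neuropeptide list (2830 CPM), and the lowest library was apart for Tbr1 (18.4 CPM). Of these, Barhl2, Lct, Lhx6, Mag, Cep76 and the interneuron and unipolar brush cell sum in cerebellum, and Dao and the lowest Tbr1 in hippocampus, are from mouse 2, whose libraries were the shallowest of their tissue. Lct had 1 count in each of the 4 cerebellar libraries, so its CPM differ by library size alone. Slc6a5, Dao, Uncx and Barhl1 had 1, 1, 3 and 3 hippocampal counts, each within 1 library and with 0 in the others. Any such gene passes this check whatever its count, so these flags show nothing further.

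The regional difference (log2, Npc1-/- vehicle minus Npc1+/+, edgeR's quasi-likelihood test with a tissue by sex term) was positive for Gpnmb (4.06), Hpse (3.15), Mag (2.54), Mbp (2.32), Mal (2.15), Tspan2 (2.03), Gfap (1.95), Unc5b (1.91), Laptm5 (1.5) and Qdpr (1.32). It was negative for Car8 (-4.03), Itpka (-3.67), Calb1 (-3.1), Itpr1 (-2.74), Cep76 (-2.62), Gcnt1 (-2.57), Tuba8 (-2.49), Icmt (-2.06) and Rgs8 (-2.05).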

How the results depend on the processing

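The count of regional genes stayed within 1.5 times of 5568 under every alternative run, from 4584 without replicate 1 to 5876 with library totals, and without the animal pairing (no replicate block) it was 5324. For regional genes at 2-fold the count ran from 2168 with the stricter filter to 2762 with library totals, where 1621 were higher and 1141 lower. For the regional difference against Npc1+/+ (155 genes) the count was 125 without the block, 228 with DESeq2, 148 with limma-voom, 22 with only the groups compared and 386 without the tissue by sex term, and leaving out 1 mouse gave 27 to 227. Without mouse 2 (shallowest) and dipyridamole mouse 4 (hippocampal library apart) together, an alternative chosen after seeing the data, it was 117. For the regional difference against dipyridamole the count was 0 under every alternative. Of 149 genes named from the regional test, 133 kept their call under every alternative in which they were tested, and no call changed sign. Some of the 149 were absent from some runs, and those runs were not counted for them. The cause of the moved counts was not tested, beyond fewer samples in the left-out fits. At these depths and this number of mice, 1.5-fold regional differences were recovered for 23.9% of changed genes in simulated counts; what limits the recovery was not tested.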
